A study of Mus musculus and Homo sapiens with 28 samples.

Results

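The genes described here are 37 interferon-stimulated genes, a list given for this work by name, from OASL, STAT2, USP18 and BST2 to effectors such as MX1, IFIT1 and RSAD2. The list is by name, with no threshold on a value, and was put together with earlier results of these data known. The human table held rows for 35 of them among 56269 rows, and the mouse table held rows for 36 among 46078 rows. The difference is the OASL entry, which in mouse corresponds to the separate genes Oasl1 and Oasl2. All 36 mouse members lay above the filter on low values and were tested. Of the human members 34 were tested, and CMPK2, with no count in any of the 4 libraries, was not.

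RNA was sequenced from a human renal carcinoma line and from mouse renal tumours. Cells of 786-O, an established line from a clear cell renal carcinoma, stayed untreated (2 libraries) or were given a CHK1 inhibitor at 25 nM for 48 h (2 libraries). The labels and design name this compound LY2606368 and the treatment protocol names it LY2603618, and the conflict could not be settled here, so LY2606368 below means the libraries labelled so. The mouse tumours came from Renca, a mouse renal carcinoma line, injected in Matrigel under the skin of the back and treated from a volume of about 100 mm3. They were labelled WT untreated (7 libraries), WT VE822 (6 libraries), SETD2 KD untreated (6 libraries) and SETD2 KD VE822 (5 libraries). VE822, an inhibitor of the kinase ATR, was given by oral gavage at 60 mg/kg on 5 consecutive days per week. SETD2 is the methyltransferase that trimethylates lysine 36 of histone H3. The sources used here do not give the strain and age of the mice, the knockdown construct or the number of clones. The label calls the tissue kidney although the tumours grew under the skin, so each mouse library holds tumour cells together with host cells.

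Type I interferons bind the receptor made of IFNAR1 and IFNAR2, whose kinases JAK1 and TYK2 phosphorylate STAT proteins, STAT2 among them. STAT2 and IRF9 are subunits of the complex ISGF3, which binds the interferon-stimulated response element (ISRE) in the promoters of interferon-stimulated genes. The products restrict viruses, sense foreign or self nucleic acid, or feed back on the signal, and several are also induced by interferon gamma through gamma-activated sequences (GAS). DNA that reaches the cytosol after replication damage can start the pathway through the sensor cGAS, and this is why the genes are read in tumours given inhibitors of ATR or CHK1.

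Promoters from RefSeq (GRCm38.p6, 250 bases before to 50 after each start site) were found for 28 of the 36 mouse members. Dhx58, Mx1, Mx2, Oas2, Parp14, Parp9, Rtp4 and Usp18 had no entry. The ISRE core, GAAA with any 2 bases and then GAAA again, searched on both strands, was present in 11 of the 28 genes and in 3.99% of all 27025 genes of the same table. The GAS letters TTCNNNGAA were present in 5 of the 28 members and in 9.55% of all genes. In 8 of the 11 members an ISRE match lay before the start site, namely Bst2, Ifit1, Ifit3, Isg15, Lgals9, Oas3, Rsad2 and Stat2, and in Ddx58, Eif2ak2 and Ifih1 the match lay only after it. The 250 bases before the start site are shown for 4 members, 5′ to 3′ on the gene's strand, with ISRE matches in capitals. Rsad2 and Isg15 were chosen because both carry matches while Isg15 passed the threshold in none of the comparisons, Stat2 because it encodes a subunit of ISGF3, and Oasl2 because it had the largest VE822 difference of the members and no match in this window.
Rsad2 (chr12:26456453-26456702, minus strand): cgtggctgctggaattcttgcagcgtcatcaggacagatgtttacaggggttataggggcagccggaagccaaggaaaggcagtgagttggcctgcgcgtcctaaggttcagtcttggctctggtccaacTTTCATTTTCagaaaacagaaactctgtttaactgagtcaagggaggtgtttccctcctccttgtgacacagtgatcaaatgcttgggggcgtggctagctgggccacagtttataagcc
Isg15 (chr4:156200819-156201068, minus strand): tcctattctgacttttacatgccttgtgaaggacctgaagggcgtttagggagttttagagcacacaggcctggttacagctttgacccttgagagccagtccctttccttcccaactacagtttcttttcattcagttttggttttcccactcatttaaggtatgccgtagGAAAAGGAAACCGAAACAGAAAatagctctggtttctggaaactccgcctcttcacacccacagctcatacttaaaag
Stat2 (chr10:128270248-128270497, plus strand): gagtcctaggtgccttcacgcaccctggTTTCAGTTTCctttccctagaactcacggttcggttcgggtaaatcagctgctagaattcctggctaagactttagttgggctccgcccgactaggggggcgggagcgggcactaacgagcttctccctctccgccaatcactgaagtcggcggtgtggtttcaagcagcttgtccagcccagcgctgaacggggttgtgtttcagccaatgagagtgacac
Oasl2 (chr5:114896684-114896933, plus strand): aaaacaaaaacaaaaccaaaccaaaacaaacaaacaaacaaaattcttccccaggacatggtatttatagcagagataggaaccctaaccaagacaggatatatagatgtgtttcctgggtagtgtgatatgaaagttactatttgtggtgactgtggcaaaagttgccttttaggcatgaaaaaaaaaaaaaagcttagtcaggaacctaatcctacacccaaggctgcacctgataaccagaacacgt
In Isg15 the 3 overlapping matches began 78, 72 and 66 bases before the start site. The single matches of Rsad2 and Stat2, on the other strand, began 120 and 222 bases before it. Bst2, whose sequence is not shown, held 2 overlapping matches that began 130 and 124 bases before its start site. A match of letters is a description and does not show binding.

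The labelled genotype could not be read from Setd2 itself. Mean regularised log values (rlog, the log2 scale of the mouse table) were 10.83 ± 0.07 (SD, n = 7) in WT untreated and 10.81 ± 0.07 (SD, n = 6) in SETD2 KD untreated libraries, and 10.03 ± 0.29 (SD, n = 6) and 9.72 ± 0.21 (SD, n = 5) in WT VE822 and SETD2 KD VE822 libraries. Below, WT and SETD2 KD therefore mean libraries labelled so. Depth was 20834400 to 23956007 recovered counts per human library and is unknown for the mouse libraries. Of 6 renal epithelial genes all lay above the filter in the tumours, with list means of 10.76 to 11.60 over the 24 libraries, and 6 macrophage genes had list means of 12.36 to 13.04. Of the immune genes listed for 786-O, the T cell gene CD3E had no count in any library. PTPRC and CD68 had 0 to 2 counts per library, and CD14 had 2 to 18. Skeletal muscle transcripts were high in 5 mouse libraries, WT untreated replicate 4, WT VE822 replicates 1, 2 and 4 and SETD2 KD untreated replicate 4, and member calls that were lost or gained without these libraries are given beside the results.

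Averaged over the 36 members, untreated tumours were close to each other and VE822 tumours were spread. The list mean ran from 9.64 to 9.86 rlog in the 7 WT untreated libraries, with a median of 9.72, and from 9.72 to 9.83 in the 6 SETD2 KD untreated libraries, with a median of 9.79. It ran from 9.45 to 10.04 in the 6 WT VE822 libraries, with a median of 9.79. In the 5 SETD2 KD VE822 libraries it was 9.98, 10.07, 10.11, 10.10 and 9.64. The untreated and the VE822 groups thus overlapped under both genotype labels. WT VE822 replicate 3 had the lowest value of its group for 27 of the 36 members, and SETD2 KD VE822 replicate 5 for 29 of the 36. At the other end, WT VE822 replicate 4 was highest for 15 members and SETD2 KD VE822 replicate 4 for 16.

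**Figure D1:**
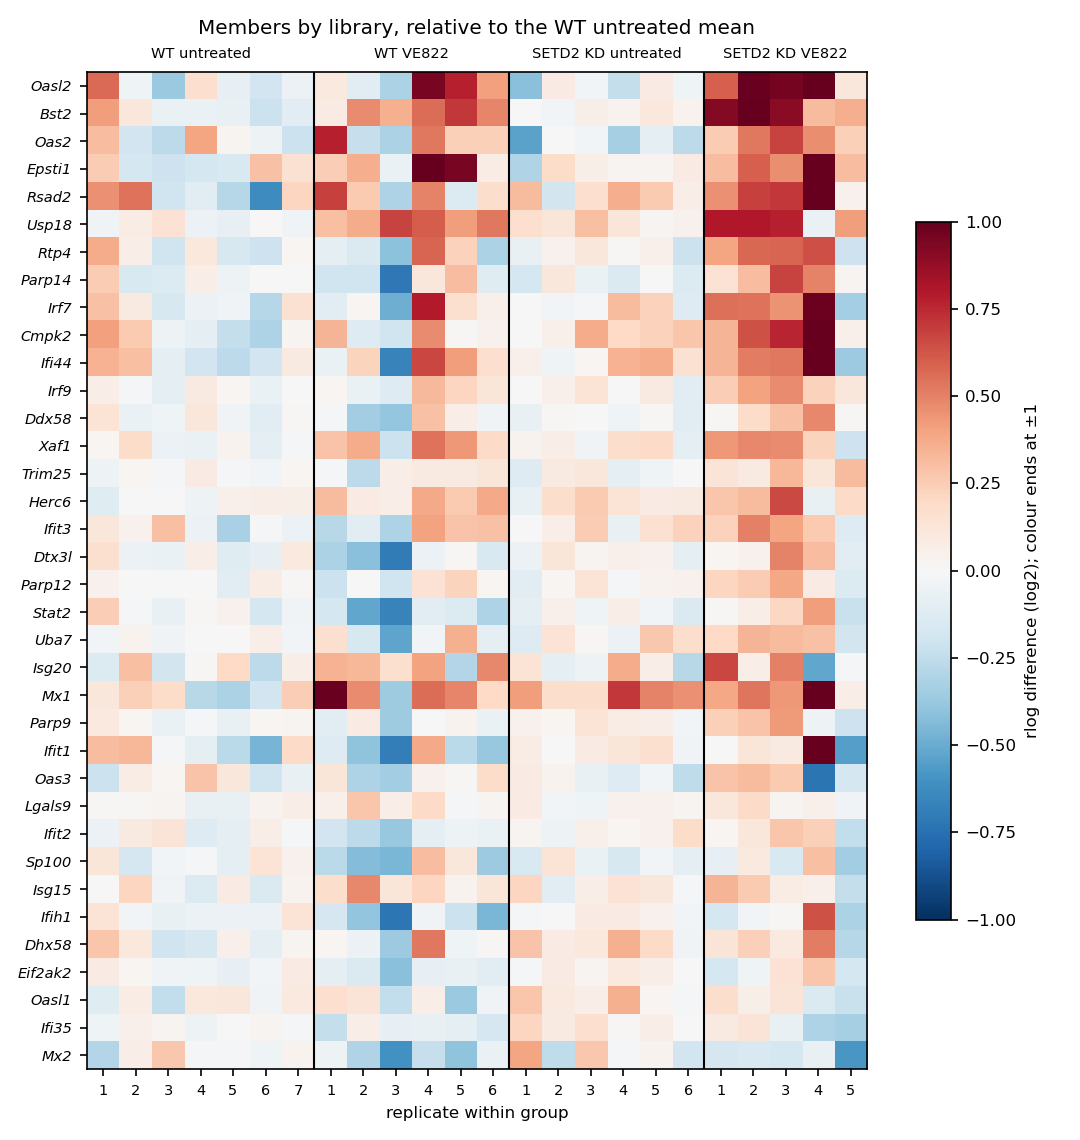
Each of the 36 mouse members (rows) in each of the 24 tumour libraries (columns, by group and replicate), coloured by its rlog value minus the mean of the WT untreated libraries (log2, colour scale ending at ±1), with rows ordered by the VE822 difference under the SETD2 KD label. WT VE822 replicate 3 and SETD2 KD VE822 replicate 5 are the palest or bluest columns of their groups, and the rows from Oasl2 to Usp18 are red in most VE822 libraries.

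The same libraries were low in the T cell list (8 genes). WT VE822 replicate 3 had the lowest T cell list mean of its group at 5.45, where the group ran up to 6.79, and SETD2 KD VE822 replicate 5 had the lowest of its group at 5.98, where the group also ran up to 6.79. In both VE822 groups the library with the lowest member mean thus also had the lowest T cell mean. The untreated groups did not show this. SETD2 KD untreated replicate 6 had the lowest member mean of its group (9.72) and the highest T cell mean (5.50). In WT untreated libraries replicate 6 had the lowest member mean (9.64) and replicate 3 the lowest T cell mean (5.07). Other WT VE822 libraries did not rank alike in the 2 lists. Replicate 1 had a T cell mean of 5.57 and a member mean of 9.80, replicate 5 had 6.79 and 9.86, and replicate 4 had 6.23 and 10.04. SETD2 KD VE822 replicate 3 was the highest of its group in both, at 6.79 and 10.11. The part of host immune cells in the member values was not tested. SETD2 KD VE822 replicate 4 was uneven: it was the highest of its group for Rsad2 (10.54), Mx1 (7.57), Oasl2 (10.26) and Stat2 (11.45) but the lowest for Usp18 (9.71) and Bst2 (11.57). Within groups the members varied more than genes at large, with a median within-group SD of 0.21 rlog against 0.14 for all 15916 genes tested. The 2 sets were not matched for level. Genes at large reached down to a mean of 3, the lowest group mean of a member was 6.30 (Epsti1), and rlog values shrink differences of low genes.

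The comparison of VE822 with untreated tumours under the WT label asks what ATR inhibition did where SETD2 is labelled intact. Of the 36 members 4 rose and 3 fell (limma, Benjamini-Hochberg adjusted p under 0.05), a share of 19.4%, where 34.7% of all 15916 genes tested passed in either direction. Usp18, Bst2, Epsti1 and Herc6 were higher and Ifih1, Stat2 and Dtx3l were lower. The median difference over the members was 0.01 (log2), as it was over all genes.

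Among regulators of ISG15 conjugation, Usp18 and Herc6 rose. Usp18 (ENSMUSG00000030107, GRCm38 chromosome 6, 121245906 to 121270917) encodes the protease that removes ISG15 from proteins and also damps signalling at IFNAR2. Its lowest, median and highest rlog values were 9.69, 9.74 and 9.92 in WT untreated libraries and 10.08, 10.25 and 10.45 in WT VE822 libraries. Every treated library lay above every untreated one, and the difference was 0.48 ± 0.10 (log2, SE; adjusted p 0.000855). Herc6, the mouse ligase that joins ISG15 to its targets, ran from 9.22 through 9.34 to 9.41 untreated and from 9.41 through 9.63 to 9.72 with VE822. Those groups met at 9.41 without crossing, and the difference was 0.25 ± 0.08 (adjusted p 0.0226). Isg15 itself, the ubiquitin-like modifier, differed by 0.19 ± 0.08 (adjusted p 0.0686). Usp18 and Herc6 were the members whose groups did not overlap, 2 of 36, where 6.25% of all genes were higher and 7.84% lower without overlap.

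Bst2 (ENSMUSG00000046718, chromosome 8, 71534255 to 71537456) encodes tetherin, which holds budding virions at the cell surface. It ran from 11.04 through 11.19 to 11.67 rlog in WT untreated libraries and from 11.34 through 11.73 to 11.96 in WT VE822 libraries. The groups overlapped through WT untreated replicate 1, the highest untreated library at 11.67, and WT VE822 replicate 1, the lowest treated one at 11.34. The difference was 0.44 ± 0.11 (adjusted p 0.00446). Epsti1, an interferon-induced protein of macrophages and stroma, ran from 6.09 through 6.14 to 6.59 untreated and from 6.23 through 6.60 to 7.36 with VE822, a difference of 0.44 ± 0.16 (adjusted p 0.0402). Its higher values came from WT VE822 replicates 4 and 5, at 7.36 and 7.24.

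The members that fell were a transcription factor subunit, an RNA sensor and an ADP-ribosylation partner. Stat2 (ENSMUSG00000040033, chromosome 10, 128270559 to 128292849) ran from 10.86 through 11.02 to 11.28 untreated and from 10.37 through 10.80 to 10.93 with VE822. The groups overlapped, and the difference was -0.32 ± 0.09 (adjusted p 0.0105). Genes of chromosome 10 were lower by a median of -0.25 in this comparison, and after subtraction of every chromosome's median, library by library, Stat2 differed by -0.06 (adjusted p 0.591). Ifih1, the cytosolic sensor MDA5, ran from 9.26 through 9.28 to 9.47 untreated and from 8.61 through 9.03 to 9.30 with VE822, a difference of -0.33 ± 0.11 (adjusted p 0.0252). Dtx3l, a ubiquitin ligase that works with Parp9, ran from 10.49 through 10.55 to 10.77 untreated and from 9.91 through 10.37 to 10.62 with VE822, a difference of -0.27 ± 0.10 (adjusted p 0.0328). WT VE822 replicate 3 held the lowest value of all 3 genes.

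The 29 members that did not pass ran from -0.28 (Mx2) to 0.39 (Mx1). Oasl1 differed by -0.05 ± 0.09 and Oasl2 by 0.30 ± 0.19, with adjusted p of 0.702 and 0.225. Both encode relatives of the oligoadenylate synthetases with a ubiquitin-like tail, and Oasl1 is known as a brake on IRF7 translation. Without the 5 libraries high in skeletal muscle transcripts 4 members passed (Bst2 0.50, Usp18 0.53, Ifih1 -0.47, Stat2 -0.36), and the members' median was -0.08. Leaving out single libraries moved that median from 0.01 to between -0.04 (without WT VE822 replicate 4) and 0.07 (without WT VE822 replicate 3). With chromosome medians removed 3 passed (Bst2 0.57, Usp18 0.39, Eif2ak2 -0.20). The calls of Herc6 were lost without WT VE822 replicate 4 or 6, and those of Ifih1 when replicate 7 of WT untreated or replicate 3 or 6 of WT VE822 was left out, with adjusted p of at most 0.158 and 0.0773 over all alternatives. Epsti1 and Dtx3l passed in 9 and 11 of the 21 alternatives and depended on single libraries of both groups, with adjusted p of at most 0.338 and 0.166.

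**Figure D2:**
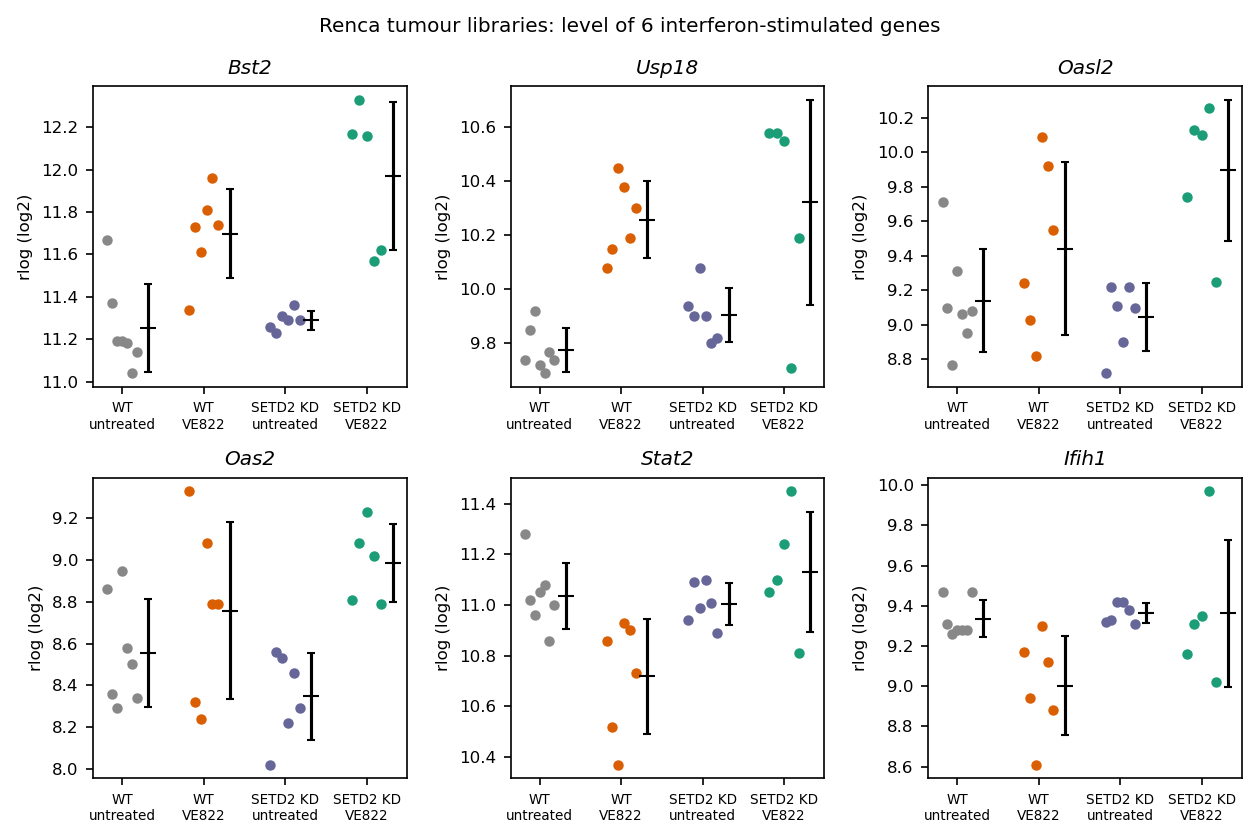
The rlog value (log2) of 6 members in each tumour library (points, by labelled group), with the group mean and SD (bar) to the right of each group. Usp18 in the 6 WT VE822 libraries lies above all 7 WT untreated libraries, and SETD2 KD VE822 replicates 1 to 3 form the upper cluster of Bst2 at 12.16 to 12.33.

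Under the SETD2 KD label, 8 of 36 members rose with VE822 and none fell past the threshold. The share of members that rose was 22.2%, where 10.6% of all genes tested rose and 11.6% fell. The 8 were Oasl2, Bst2, Oas2, Epsti1, Usp18, Parp14, Irf9 and Trim25. The median difference over the members was 0.14 (log2) against 0.01 over all genes, and 31 of 36 differences were positive, where 51.2% of all genes had a positive difference. With library weights, which count libraries far from their group less, the median was 0.09 and 24 differences were positive. Without SETD2 KD VE822 replicate 3 they were 0.10 and 29, without replicate 4 they were 0.16 and 26, and without replicate 5 they were 0.21 and 33. Replicate 5 stood out by low values of the members themselves, so the higher median without it is a description. Groups did not overlap for 4 members, where 5.3% of all genes were higher and 5.95% lower without overlap.

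Oasl2 (ENSMUSG00000029561, chromosome 5, 114896936 to 114912234) had the largest difference of the members. Its rlog values ran from 8.72 through 9.10 to 9.22 in the 6 SETD2 KD untreated libraries and were 9.74, 10.13, 10.10, 10.26 and 9.25 with VE822. Every treated library was above the untreated ones, replicate 5 by little, and the difference was 0.85 ± 0.20 (log2, SE; adjusted p 0.00397). Oas2 (ENSMUSG00000032690, chromosome 5, 120730333 to 120749853), a synthetase of the 2-5A messenger that activates RNase L, ran from 8.02 through 8.38 to 8.56 untreated and was 8.81, 9.08, 9.23, 9.02 and 8.79 with VE822. Those groups did not overlap, and the difference was 0.64 ± 0.16 (adjusted p 0.00658). Of the other members of this family Oas3 differed by 0.05 and Oasl1 by -0.13, neither past the threshold.

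Bst2 ran from 11.23 through 11.29 to 11.36 in SETD2 KD untreated libraries and was 12.17, 12.33, 12.16, 11.57 and 11.62 with VE822. All 5 treated libraries were higher than the 6 untreated ones, replicates 4 and 5 less so, and the difference was 0.68 ± 0.12 (adjusted p 0.000378). Epsti1 ran from 5.99 through 6.33 to 6.48 untreated and was 6.60, 6.89, 6.76, 7.37 and 6.60 with VE822, a difference of 0.53 ± 0.18 (adjusted p 0.0332). Usp18 ran from 9.80 through 9.90 to 10.08 untreated and was 10.58, 10.58, 10.55, 9.71 and 10.19 with VE822. Treated replicate 4 lay below every untreated library, so these groups overlapped, and the difference was 0.42 ± 0.11 (adjusted p 0.00875).

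Parp14, a mono-ADP-ribosyltransferase, ran from 10.53 through 10.60 to 10.82 untreated and was 10.85, 11.01, 11.38, 11.20 and 10.73 with VE822, a difference of 0.40 ± 0.13 (adjusted p 0.0283). Irf9, the DNA-binding subunit of ISGF3, ran from 10.02 through 10.15 to 10.26 untreated and was 10.37, 10.53, 10.60, 10.36 and 10.24 with VE822, a difference of 0.26 ± 0.07 (adjusted p 0.0102). Trim25, the ubiquitin ligase that works with the sensor RIG-I, ran from 11.62 through 11.73 to 11.86 untreated and was 11.88, 11.84, 12.08, 11.87 and 12.07 with VE822, a difference of 0.21 ± 0.06 (adjusted p 0.0165). In each of these 3 genes 1 treated library reached into the untreated range, replicate 5 for Parp14 and Irf9 and replicate 2 for Trim25. Trim25 lost its call without SETD2 KD VE822 replicate 3 or 5 (adjusted p at most 0.0589). Parp14 lost it without SETD2 KD untreated replicate 1 or 4 or SETD2 KD VE822 replicate 3 or 4 (at most 0.0967), and Epsti1 without SETD2 KD untreated replicate 1, 4 or 5 or SETD2 KD VE822 replicate 2 or 4 (at most 0.0926). Without the libraries high in skeletal muscle transcripts Parp14 differed by 0.38 (adjusted p 0.072), and the other 7 members still passed.

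The partner of Irf9, Stat2, differed by 0.13 ± 0.10 (adjusted p 0.408), with values of 11.05, 11.10, 11.24, 11.45 and 10.81 after VE822 and 10.89 through 11 to 11.10 untreated. Genes of chromosome 10 were lower by a median of -0.19 here, and with chromosome medians removed Stat2 was higher by 0.32 (adjusted p 0.0149). The 28 members that did not pass ran from -0.27 (Mx2) to 0.46 (Rsad2, the antiviral enzyme viperin). Without SETD2 KD VE822 replicate 5, the library lowest in 29 members, 13 members passed, all higher. Cmpk2, Irf7, Parp12, Rsad2, Rtp4 and Xaf1 were added and Trim25 was lost. That library stood out by the members' own values, and the share of all genes past the threshold without it is not given. The count is therefore a description.

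**Figure D3:**
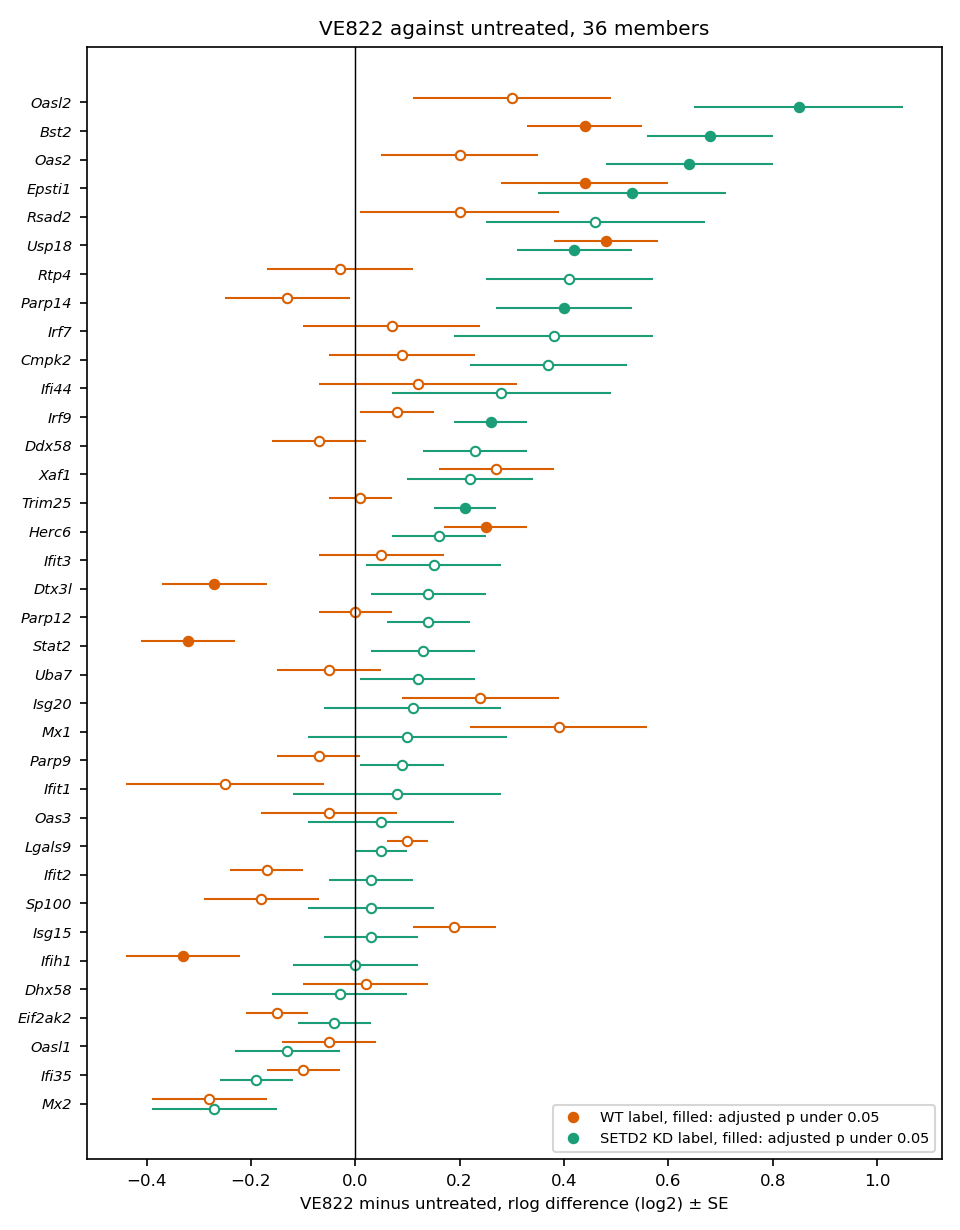
VE822 minus untreated difference in rlog (log2, points, with SE as bars) for each of the 36 members under the WT label and under the SETD2 KD label, ordered by the latter; filled points have a limma adjusted p under 0.05. Filled points of both labels stand at Bst2, Epsti1 and Usp18, and those on the negative side (Stat2, Ifih1, Dtx3l) belong to the WT label.

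The VE822 comparisons under the WT and SETD2 KD labels share no library. Bst2, Usp18 and Epsti1 rose in both, 3 of the 4 members that rose under the WT label (75%) and 3 of the 8 that rose under the SETD2 KD label (37.5%). Over all genes tested, 1248 rose in both, 45.6% of those that rose under the WT label and 73.9% of those that rose under the SETD2 KD label. Of the members that rose under the SETD2 KD label and had a promoter entry, Bst2 was 1 of the 11 with an ISRE match, and Oasl2, Epsti1, Irf9 and Trim25 were 4 of the 17 without. Under the WT label Bst2 rose and Stat2 and Ifih1 fell among those with a match, and Epsti1 and Herc6 rose and Dtx3l fell among those without. The median VE822 difference was -0.05 in the 11 members with a match and 0.07 in the 17 without under the WT label, and 0.08 and 0.16 under the SETD2 KD label. The median of the SETD2 KD minus WT difference under VE822 had the other order, 0.27 with a match and 0.18 without. These medians are given as a description and were not tested.

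Direct comparison of the genotype labels found no member past the threshold. Among untreated tumours 0 of 36 passed and 0% of all genes did, with 1 member, Mx1, under an unadjusted p of 0.05 (limma) and 512 of all genes (3.22%). The members' differences ran from -0.21 (Oas2) to 0.40 (Mx1) with a median of 0.04. Mx1, the dynamin-like GTPase, ran from 6.13 to 6.69 in WT untreated and from 6.62 to 7.15 in SETD2 KD untreated libraries, which overlapped.

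Under VE822 the SETD2 KD libraries were higher than the WT libraries by a median of 0.21 (log2) over the members, against 0.00 over all genes, and 33 of 36 differences were positive where 49.2% of all genes had a positive one. None passed (limma, 0 of 36, where 0.0126% of all genes did, 0.00628% higher and 0.00628% lower), and 16 members had an unadjusted p under 0.05 where 12.8% of all genes did. Parp14 differed by 0.47 (adjusted p 0.156), Dtx3l by 0.43 (adjusted p 0.119) and Stat2 by 0.41 (adjusted p 0.117), and the lowest difference was -0.10 (Isg20). Stat2 in SETD2 KD VE822 libraries (10.81 to 11.45) overlapped WT VE822 libraries (10.37 to 10.93), in which replicate 3 was lowest. The groups overlapped for all 36 members, where 0.346% of all genes were higher and 0.264% lower without overlap. Leaving out that library moved the members' median from 0.21 to 0.14 and the number of positive differences from 33 to 28. With library weights they were 0.09 and 26, and without the libraries high in skeletal muscle transcripts 0.24 and 36.

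The interaction, which tests whether the VE822 difference itself differed between the genotype labels, was passed by 0 of 36 members and 0% of all genes. Its unadjusted p was under 0.05 in 5 members (limma) and in 9.12% of all genes. Oasl2 had the largest interaction at 0.55 and Mx1 the lowest at -0.29. The smallest adjusted p of a member was 0.424, for Stat2 (0.44). Members called under 1 genotype label and not under the other, such as Oas2 or Ifih1, are therefore not shown to respond differently between the labels. The median interaction over the members was 0.17, with 26 of 36 positive. It was 0.04 with library weights (22 positive), 0.10 without WT VE822 replicate 3 (24 positive) and 0.19 without the libraries high in skeletal muscle transcripts (32 positive).

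Between the outer groups of the design, SETD2 KD VE822 and WT untreated, 11 of 36 members were higher and 0 lower (30.6%, where 12.1% of all genes were higher and 12.4% lower). This comparison shares its libraries with those above. Bst2 differed by 0.72 (adjusted p 0.000127), Usp18 by 0.55 (0.00063), Irf9 by 0.29 (0.00341), Oasl2 by 0.76 (0.00657) and Cmpk2, a mitochondrial nucleotide kinase, by 0.56 (0.00666). Rsad2 differed by 0.62, Epsti1 by 0.55, Mx1 by 0.51, Oas2 by 0.43, Herc6 by 0.27 and Trim25 by 0.20, with adjusted p from 0.0174 to 0.0487. Rsad2 ran from 8.69 to 9.86 in WT untreated libraries and was 9.77, 10.00, 10.02, 10.54 and 9.36 in SETD2 KD VE822 libraries. Cmpk2 ran from 8.22 to 8.94 and was 8.87, 9.17, 9.29, 9.53 and 8.58, so both genes overlapped through treated replicates 1 and 5. Groups did not overlap for Trim25, Epsti1 and Irf9, 3 of 36, where 3.99% of all genes were higher and 4.89% lower without overlap. Leaving out single SETD2 KD VE822 libraries gave counts of 6 (without replicate 3), 7 (without replicate 2 or 4) and 16 (without replicate 5). The shares of all genes in these refits are not given, so the counts are a description. Bst2, Usp18, Oasl2, Cmpk2 and Irf9 passed under all 20 alternatives run, whereas Mx1 and Oas2 passed in 9 of 20 and Rsad2 in 14 of 20. Without the libraries high in skeletal muscle transcripts 10 members passed, with Mx1 (0.46, adjusted p 0.0564) and Herc6 (0.26, adjusted p 0.0513) lost and Rtp4 (0.41, adjusted p 0.049) added.

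Upstream of the members, interferon transcripts were near or at the bottom of the mouse table. Of 18 type I interferon ligand genes 14 were listed at 0 in all 24 libraries and none reached the filter. Ifnb1, which encodes interferon beta, had mean rlog values of 0.69, 0.64, 0.65 and 0.71 in WT untreated, WT VE822, SETD2 KD untreated and SETD2 KD VE822 libraries. The receptor genes Ifnar1 and Ifnar2 differed by -0.02 and 0.01 with VE822 under the WT label and by 0.06 and -0.04 under the SETD2 KD label, none past the threshold.

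Of 25 tested genes of the wider interferon pathway 7 rose and 4 fell with VE822 under the WT label, and 9 rose and 3 fell under the SETD2 KD label. The shares that rose were 28% and 36%, where 17.2% and 10.6% of all genes rose, and the shares that fell were 16% and 12%, where 17.5% and 11.6% of all genes fell. The chemokine genes Cxcl9 and Cxcl10, which recruit T cells and respond to interferon gamma, rose by 2.57 and 1.07 under the WT label and by 2.90 and 1.63 under the SETD2 KD label. Ciita, the master regulator of MHC class II genes, rose by 1.00 and 1.40, and Socs1, a feedback inhibitor of JAK kinases, by 0.92 and 1.08. Irf1, a transcription factor of interferon responses, rose by 0.63 under the SETD2 KD label, and its difference under the WT label was 0.14 with an adjusted p of 0.352. Jak1 fell (-0.35 and -0.32), as did Ifngr1, a chain of the interferon gamma receptor (-0.53 and -0.47 under the WT and SETD2 KD labels).

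Of 64 further interferon-stimulated genes tested, 10 rose and 11 fell under the WT label (15.6% and 17.2%), shares near those of all genes (17.2% and 17.5%). Under the SETD2 KD label 20 rose and 7 fell (31.2% and 10.9%), where 10.6% and 11.6% of all genes did. Gm4951, a GTPase gene, rose by 0.68 and 1.37, Zbp1, a sensor of Z-form nucleic acid, by 0.58 and 1.00, and Ifi205 by 0.70 and 0.95. Batf2 and Ms4a4c rose by 1.14 and 1.09 under the SETD2 KD label. Slfn8 and Sp140 fell under the WT label (-0.40 each).

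Some markers of host immune cells and of fibroblasts moved with the same treatment. Of all genes tested 17.2% rose and 17.5% fell under the WT label, and 10.6% and 11.6% did under the SETD2 KD label. In the T cell list 7 of 8 genes rose under the WT label and 8 of 8 under the SETD2 KD label, with list means of 5.07 to 5.77 in WT untreated, 5.45 to 6.79 in WT VE822, 5.13 to 5.50 in SETD2 KD untreated and 5.98 to 6.79 in SETD2 KD VE822 libraries. The natural killer cell genes Nkg7, Gzma and Klrb1c rose under both labels. The fourth of that list, Ncr1, had means of 2.92 and 2.96 rlog in the untreated groups and 3.17 and 3.35 with VE822, so it reached the filter of 3 through the treated libraries and is not counted. The list of conventional dendritic cell genes rose in 5 of 6 cases under each label. Of 3 plasmacytoid dendritic cell genes that reached the filter, a cell type known for interferon secretion, Cox6a2, which is also a gene of striated muscle, rose under both labels, Siglech, close to the filter with untreated means of 3.02 and 2.95, passed under the WT label, and Tcf4 passed under neither. Of 5 fibroblast genes 4 rose under the WT label (median difference 1.25) and 0 under the SETD2 KD label (median 0.76). The interaction was passed by 0 of the 5 (median -0.43), so a different response between the labels is not shown. The fibroblast list mean ran from 7.90 to 10.25 in WT untreated, 9.40 to 12.32 in WT VE822, 8.14 to 9.86 in SETD2 KD untreated and 8.82 to 10.27 in SETD2 KD VE822 libraries. WT VE822 replicate 4, the library highest for 15 members, was also the highest in fibroblast genes at 12.32. Macrophage genes rose in 0 of 6 cases and fell in 2 of 6 under each label, and 5 of 6 renal epithelial genes fell under each. Of 4 neutrophil and 4 endothelial genes 0 passed under either label. Of 2 B cell genes tested 1 rose under the WT label and 1 fell under the SETD2 KD label. No defining marker of these cell types was at 0 in all libraries. In bulk tumours more cells of a type and more RNA per cell cannot be told apart, and the part of these cells in the member differences was not tested.

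In 786-O cells, a culture without host cells, the comparison of LY2606368 with untreated libraries asks what CHK1 inhibition did in the tumour cells alone. Of 34 members tested 2 rose and 4 fell (limma, 17.6%, where 13.2% of all 29353 genes passed, 7.05% higher and 6.16% lower). OASL and TRIM25 rose, and UBA7, PARP9, STAT2 and PARP14 fell. The fit with the 2 experiments as a replicate block called 12 members, 4 higher and 8 lower. It added DDX58 and IFIT3 among the higher and BST2, EIF2AK2, HERC6 and IFI35 among the lower. The share of all genes that passed in the blocked fit is not given, so this rise in number is not a result about the members. Without a variance trend 0 members and 0 genes of the whole table passed (limma). In the unblocked fit 14 of 34 members had an unadjusted p under 0.05 (limma), where 32.3% of all genes did. The median difference of the members was 0.28 (log2) against 0.08 over all genes, with 21 positive and 13 negative. That median rested on single libraries and on low genes: it was -0.01 without LY2606368 replicate 1 (16 of 34 positive), 0.43 without LY2606368 replicate 2, 0.18 without untreated replicate 2, 0.06 over the 24 members with a mean value of at least 5 and -0.14 over the 22 with a mean of at least 6 (10 positive). Values did not overlap for 14 members higher and 11 lower, where 29.1% and 23.3% of all genes did not overlap in those directions.

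OASL, the human oligoadenylate synthetase-like protein, had 14 and 9 counts in the untreated libraries and 73 and 47 in the LY2606368 libraries (replicates 1 and 2). Scaled to library totals, the pooled ratio was 5.85 (95% interval 3.73 to 9.59, exact binomial, counting error only), and on the variance-stabilised log2 scale the difference was 1.91 ± 0.27 (SE; adjusted p 0.0356). TRIM25 had 4424 and 3895 counts untreated and 9703 and 9286 treated, a pooled ratio of 2.56 (2.50 to 2.63) and a difference of 1.41 ± 0.09 (adjusted p 0.0232). OASL rested on few counts and TRIM25 on many, and in both genes the treated libraries were well above the untreated ones.

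Among the members that fell, UBA7, the activating enzyme of ISG15 conjugation, had 639 and 409 counts untreated and 122 and 116 treated, a difference of -1.80 ± 0.25 (adjusted p 0.034). STAT2 had 1169 and 1131 counts untreated and 579 and 408 treated, a pooled ratio of 0.482 (0.447 to 0.519) and a difference of -1.01 ± 0.18 (adjusted p 0.0495). PARP9 had 827 and 923 counts untreated and 413 and 283 treated, a difference of -1.11 ± 0.20 (adjusted p 0.0495). PARP14 had 4518 and 4212 counts untreated and 2788 and 2716 treated, a difference of -0.44 ± 0.07 (adjusted p 0.0394). In each of these genes the groups were apart and the treated libraries lower.

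**Figure D4:**
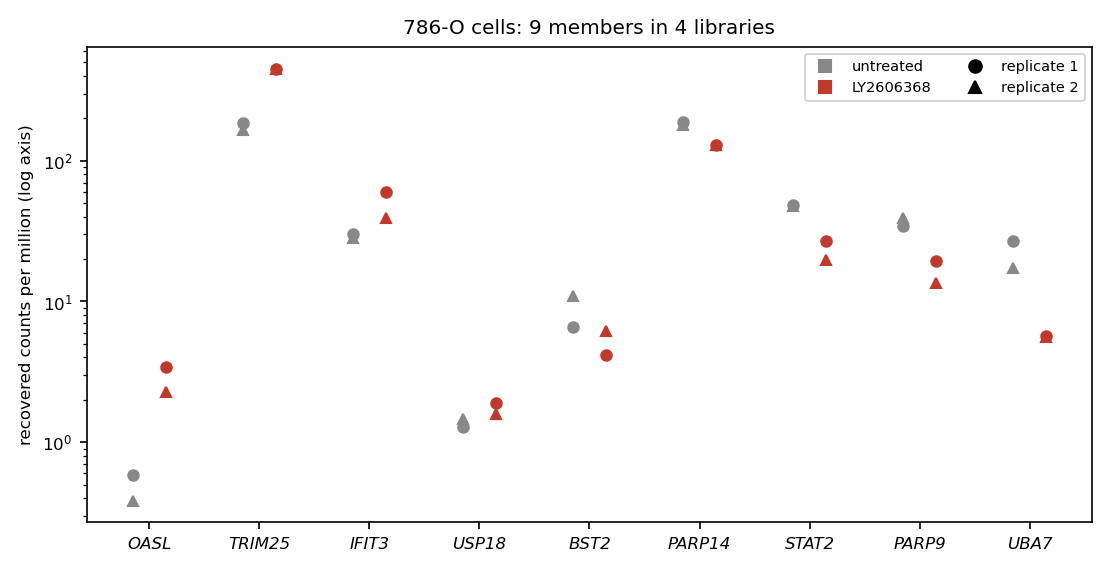
Recovered counts scaled to library totals (CPM, log axis) of 9 members in the 4 libraries of 786-O cells, untreated and LY2606368, with circles for replicate 1 and triangles for replicate 2. OASL, TRIM25 and IFIT3 lie higher in the LY2606368 libraries, PARP14, STAT2, PARP9 and UBA7 lie lower, and the USP18 values of 1.29 to 1.91 lie close together.

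USP18 and BST2, which rose in the mouse tumours, did not rise past the threshold in 786-O. USP18 had 31 and 34 counts untreated and 41 and 33 treated, a ratio of 1.28 (0.903 to 1.81) and a difference of 0.32. BST2 had 157 and 258 counts untreated and 89 and 129 treated, a ratio of 0.589 (0.498 to 0.696). Its difference of -0.64 did not pass in the unblocked fit (limma, adjusted p 0.308) and passed in the blocked fit (adjusted p 0.0406). As for OASL, the intervals of these ratios hold counting error only and leave out the spread between libraries. Human and mouse libraries differ in compound, dose, time and cell mixture, so these values stand side by side without a test.

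Several low members had larger ratios in treated libraries that rested on few counts. OAS2 had 3 and 14 counts untreated and 58 and 28 treated, a ratio of 5.68 (3.35 to 10.2). MX2 had 0 and 3 counts untreated and 24 and 9 treated, a ratio of 12.3 (3.87 to 62.9). Neither passed the test across genes. IFIT3, which binds the RNA-binding protein IFIT1, had 721 and 661 counts untreated and 1278 and 823 treated, while IFIT1 had 397 and 470 untreated and 347 and 124 treated. The low IFIT1 value came from treated replicate 2.

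In 786-O 4 of 24 tested genes of the pathway list fell and 1 rose (16.7% and 4.17%, where 6.16% of all genes fell and 7.05% rose). Those that fell included JAK1 with a difference (log2) of -1.24, MAVS, the adaptor of RNA sensors (-1.18), and IKBKE, a kinase of interferon induction (-0.98). SOCS3, a feedback inhibitor, rose by 1.05. The receptor genes IFNAR1 and IFNAR2 differed by -0.38 and -0.34, with adjusted p of 0.101 and 0.158. Of 17 ligand genes 13 had no count in any library and 4 were tested, of which none passed, and IFNB1 had 0 counts in both untreated libraries and 4 and 1 in the treated ones. Of 44 further interferon-stimulated genes 4 passed as higher and 5 as lower (9.09% and 11.4%, where 7.05% and 6.16% of all genes did). IFI16, a DNA sensor, rose by 1.30, ZNFX1 by 0.79 and DDX60L by 0.65. The other, LAMP3, had 0 counts in both untreated libraries and 2 and 3 in the treated ones, so its call rested on 5 counts. TRIM5 (-1.20), SAMD9 (-1.18), TDRD7 (-1.07), RNF213 (-0.76) and TRIM14 (-0.52) fell.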

How the data were processed

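The authors deposited the human table as variance-stabilised log2 values and the mouse table as regularised log (rlog) log2 values, per the file headers. FastQC, TopHat, HTSeq, DESeq2, hg38 and GRCm38 are named without versions, per the submitters' processing notes. The sources used here do not give strandedness or how reads shared by similar genes were assigned, so families such as OAS, IFIT and MX are uncertain. Whole counts were recovered from the steps of the human values (100% whole within 0.1), whose floor, a count of 0, is 2.47. Mouse depth is unknown.

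Both tables were fitted with limma 3.58.1 (R 4.3.3), with a mean-variance trend, on the log2 values without further logarithm. The mouse model had 4 group means over 24 libraries and covered 15916 genes at a mean rlog of 3 or more, and the human model 2 groups and 29353 rows that were not constant. Benjamini-Hochberg adjustment ran over every gene tested in a comparison, and 0.05 was the threshold. A test planned for counts of the human table was thus run as a limma voom alternative. Names and coordinates came from GENCODE vM21 (GRCm38) by Ensembl identifier. Scripts were tested on simulated data.

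The labels do not say whether libraries came from separate animals or cultures, so p-values measure the spread between libraries. The human replicate numbers mark 2 experiments, per the design text, and deviations correlated by 0.158 over 29353 genes and 0.511 over 12731 genes at a mean of 5 or more. The members and all gene lists were chosen with earlier results of these data known. Every member past the threshold was named, and up to 10 with the largest differences, with OASL, STAT2, USP18 and BST2, were given by library. Other lists were named up to 8 genes, and 1 gene of the pathway list is not reported here. Alternatives were other filters, variance models, scalings, library weights, chromosome medians removed, a replicate block and single libraries left out. Leaving out the libraries high in skeletal muscle transcripts (list mean above 5) was chosen after seeing the data.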

Additional observations from a re-analysis of the deposited data

Results flagged for a closer look

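Each of 144 sets of values (36 members in 4 mouse groups) was checked for a single library far from the others of its group, and 5 had one. Chance alone flags about 1 in 20 such sets. Low values stood apart for Mx2 in SETD2 KD VE822 replicate 5 (7.62 rlog), Uba7 in the same library (9.36), Eif2ak2 in WT VE822 replicate 3 (10.42), Trim25 in WT VE822 replicate 2 (11.49) and Epsti1 in SETD2 KD untreated replicate 1 (5.99). The first 3 fall in the libraries that were lowest of their group for 29 and 27 of the 36 members.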

How the results depend on the processing

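Counts of members past the threshold moved as follows. Except where stated, the share of all genes past the threshold under each alternative is not given. A move in a count is therefore not a result about the members. For VE822 under the WT label (7), 3 passed with chromosome medians removed and 4 without the libraries high in skeletal muscle transcripts, a choice made after seeing the data, and leaving out single libraries gave 5 to 9. For VE822 under the SETD2 KD label (8), leaving out single libraries gave 6 to 13, and for SETD2 KD VE822 against WT untreated (11) it gave 6 to 16. For LY2606368 (6 of 34), 11 of the 24 members with a mean value of at least 5 passed under that filter. With the replicate block 12 of 34 passed, and without a variance trend 0 did, where 0 of all genes passed. Leaving out single human libraries gave 0 to 2, with the lone library assumed to vary like the other group, and 0 of all genes passed without either untreated library. The comparisons of genotype labels and the interaction had 0 members past the threshold under every alternative run. Usp18 and Bst2 under the WT label passed under all 21 alternatives run, and Bst2, Oasl2, Oas2 and Irf9 under the SETD2 KD label under all 19. Usp18 there was lost in the fit of only the groups compared (adjusted p 0.0554). Epsti1 was lost under 12 of 21 and 7 of 19 alternatives, and Dtx3l under 10 of 21. Oasl1 under the WT label ran from -0.09 to 0.02 over left-out libraries and reversed without WT VE822 replicate 5, and the cause was not tested. Oasl2 under the WT label passed with library weights (0.47, adjusted p 0.0466). Precision is limited by 2 libraries per human group, and rlog values shrink differences of low genes.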
